A study of Mus musculus with 12 samples.

Results

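DSS colitis was examined among mice that all drank L-arginine (L-Arg) during recovery: the colon of 3 DSS+L-Arg mice was set against that of 3 control+L-Arg mice, which are 6 of the 12 arrays of the series. The comparison was defined by the labels of the mice, and each of the 19938 genes with a probe set of its own was tested. All animals were male wild-type C57BL/6 mice, 7 weeks old at the start. DSS+L-Arg mice drank 4% DSS for 6 days and then 1% L-Arg for 4 days, and control+L-Arg mice drank plain water for 6 days and then 1% L-Arg for 4 days. Control and DSS mice, which drank plain water in place of L-Arg, stand beside them below. Every mouse was killed on day 10. RNA came from whole colon tissue, for which the general methods of the study join 1 proximal with 1 distal piece, and each mouse had its own Affymetrix Gene ST array. In such bulk tissue, fewer cells of a type and less RNA per cell cannot be told apart. Values below are given in the order of the mouse numbers, 1 to 3.

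Dextran sulfate sodium (DSS) is a polymer that damages the epithelial lining of the colon, lets luminal bacteria reach the mucosa and draws in neutrophils and monocytes, and the epithelium is repaired after it is withdrawn. L-Arg is the substrate of nitric oxide synthases and of arginases, which make ornithine, the precursor of polyamines and proline. The comparison asks what a course of DSS left in the colon of mice that then drank L-Arg. The difference between this DSS effect and the one in mice without L-Arg asks which genes responded differently.

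Colon markers were present in all 6 arrays. On the log2 scale, the value of Muc2, the main colonic mucin, lay between 13.41 and 14.02, that of the intestinal transcription factor Cdx2 between 11.37 and 12.08, and that of the carbonic anhydrase Car1 between 14.01 and 14.17. Muscle genes and a gene of colon position varied between mice of a group, and which stretch of colon each array holds is not stated. Relative to the control+L-Arg mean of each gene, the median of 23 smooth muscle genes was 0.04, -0.87 and 0.86 in the control+L-Arg mice and -1.41, -0.45 and -1.11 in the DSS+L-Arg mice. Hoxb13, a gene of the most posterior gut, read 10.86, 8.12 and 10.33 in the control+L-Arg mice and 10.90, 6.65 and 6.28 in the DSS+L-Arg mice. The groups overlapped in both, and DSS+L-Arg 2 was the DSS+L-Arg mouse with the most muscle signal.

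In the mice given L-Arg, DSS left 40 genes higher and 21 lower at a Benjamini-Hochberg adjusted p under 0.05 in a limma model of all 12 arrays, which is 0.201% and 0.105% of the genes tested. Genes of epithelial defense (Retnlb, Duox2, Duoxa2), mucosal mast cell proteases (Mcpt1, Mcpt2) and cholesterol synthesis (Insig1, Hmgcs1, Sqle and others) were among those that rose. A phosphate transporter (Slc34a2), surface peptidases (Cpm, Dpp4) and conjugating enzymes (Ugt2b35, Sult1c2, Gstt1) were among those that fell. Of the called genes, 19 rose and 10 fell more than 2-fold. In each of the 61, the 3 DSS+L-Arg values lay outside the range of the 3 control+L-Arg values. That was also so, without regard to any p, in 12.9% of all genes on the higher side and 8.13% on the lower side. The thresholds of the study, an unadjusted p under 0.01 and a fold change over 2, left 59 genes higher (0.296%) and 86 lower (0.431%), or 73 and 70 when each array was centred on its median.

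The lowest adjusted p was 0.0123, so the calls lie close to the threshold. Without control+L-Arg 1, control+L-Arg 3, DSS+L-Arg 1 or DSS+L-Arg 3, no gene passed it in limma, while 2065, 2061, 2918 and 2302 genes had an unadjusted p under 0.05. With a covariate for the mean of the smooth muscle genes no gene passed it either (lowest adjusted p 0.23, with 1259 at an unadjusted p under 0.05). It was also passed by 15, 10 and 16 genes without control 1, 2 and 3, by 190 without control+L-Arg 2, by 117 and 206 without DSS 1 and DSS 3, and by 5 without DSS+L-Arg 2. All 61 genes kept their direction in each of those fits, and all 61 had an unadjusted p under 0.01 in them. With an unequal-variance test in place of limma, 40 of the 61 had an unadjusted p under 0.01.

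Duox2 and its partner Duoxa2 rose, while the related oxidases Duox1 (0.17 ± 0.12 on the log2 scale, adjusted p = 0.53 by limma) and Nox1 (0.75 ± 0.62, adjusted p = 0.58 by limma) were not called. Duox2, the dual oxidase that makes hydrogen peroxide at the apical membrane, read 10.03, 9.83 and 9.95 in control+L-Arg mice and 11.50, 11.49 and 11.63 in DSS+L-Arg mice. The spread within either group was small beside the step between them, and the log2 fold change was 1.61 ± 0.18 (SE, adjusted p = 0.0123 by limma). Duoxa2, which encodes the factor that carries Duox2 to the membrane, went from 10.08, 10.13 and 10.20 to 12.10, 12.24 and 12.15, a 4.07-fold rise (adjusted p = 0.0352 by limma). In RefSeq (GRCm38.p6) the 2 genes lie head to head on chromosome 2, with starts 673 bases apart on opposite strands. In mice without L-Arg the same genes differed by 0.61 ± 0.18 and 0.85 ± 0.28 on the log2 scale between DSS and control, and neither was called (adjusted p = 0.0774 and 0.11 by limma). The plain-water control mice were more spread than those on L-Arg, with Duox2 at 10.59, 10.86 and 10.02. The 2 DSS effects on Duox2 differed by 0.99 ± 0.25, which did not pass either (adjusted p = 0.18 by limma).

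Retnlb encodes RELM-beta, an antimicrobial protein that goblet cells secrete. Its values were 8.43, 8.58 and 7.47 in control+L-Arg mice and 11.25, 10.76 and 11.52 in DSS+L-Arg mice, an 8.10-fold rise (adjusted p = 0.0379 by limma). In DSS mice without L-Arg it read 10.45, 11.99 and 11.38, and the 2 DSS effects differed by -0.44 ± 0.69. Clca4b, a member of the calcium-activated chloride channel regulator family, rose most of all called genes. It read 9.34, 9.09 and 8.96 in control+L-Arg mice and 13.33, 11.15 and 12.53 in DSS+L-Arg mice (log2 fold change 3.21 ± 0.51, adjusted p = 0.0379 by limma), and every DSS+L-Arg mouse was above every mouse that had no DSS.

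Nos2, the inducible nitric oxide synthase that uses L-Arg, read 6.30, 6.47 and 6.38 in control+L-Arg mice and 10.23, 8.97 and 8.44 in DSS+L-Arg mice. The 3 DSS+L-Arg values lay far above the others but spread widely, and the difference of 2.83 ± 0.57 was not called (adjusted p = 0.0666 by limma). Between DSS and control Nos2 rose by 2.93 (adjusted p = 0.0173 by limma), and the 2 DSS effects differed by -0.1 (adjusted p = 0.98 by limma). The largest difference of any named gene was that of Mptx1, a mucosal pentraxin, which was singled out after its values were seen. It read 11.60, 8.84 and 10.93 in control+L-Arg mice and 6.52, 4.83 and 4.71 in DSS+L-Arg mice (log2 fold change -5.10, adjusted p = 0.0577 by limma). Between DSS and control its log2 fold change was -3.84 (adjusted p = 0.0486 by limma), and the 2 DSS effects differed by -1.26 (adjusted p = 0.80 by limma). Of the 29 measured genes of the acute phase and epithelial defense list, 3 rose, where 0.201% of all genes did, and none fell. On the higher side 13 (44.8%) did not overlap, against 12.9% of all genes. The median log2 fold change of the 29 was 0.65, against 0.04 over all genes. The largest difference among the goblet cell genes was that of Retnlb. The other 22 of the 23 measured were not called, and the median of the list was -0.21.

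**Figure D1:**
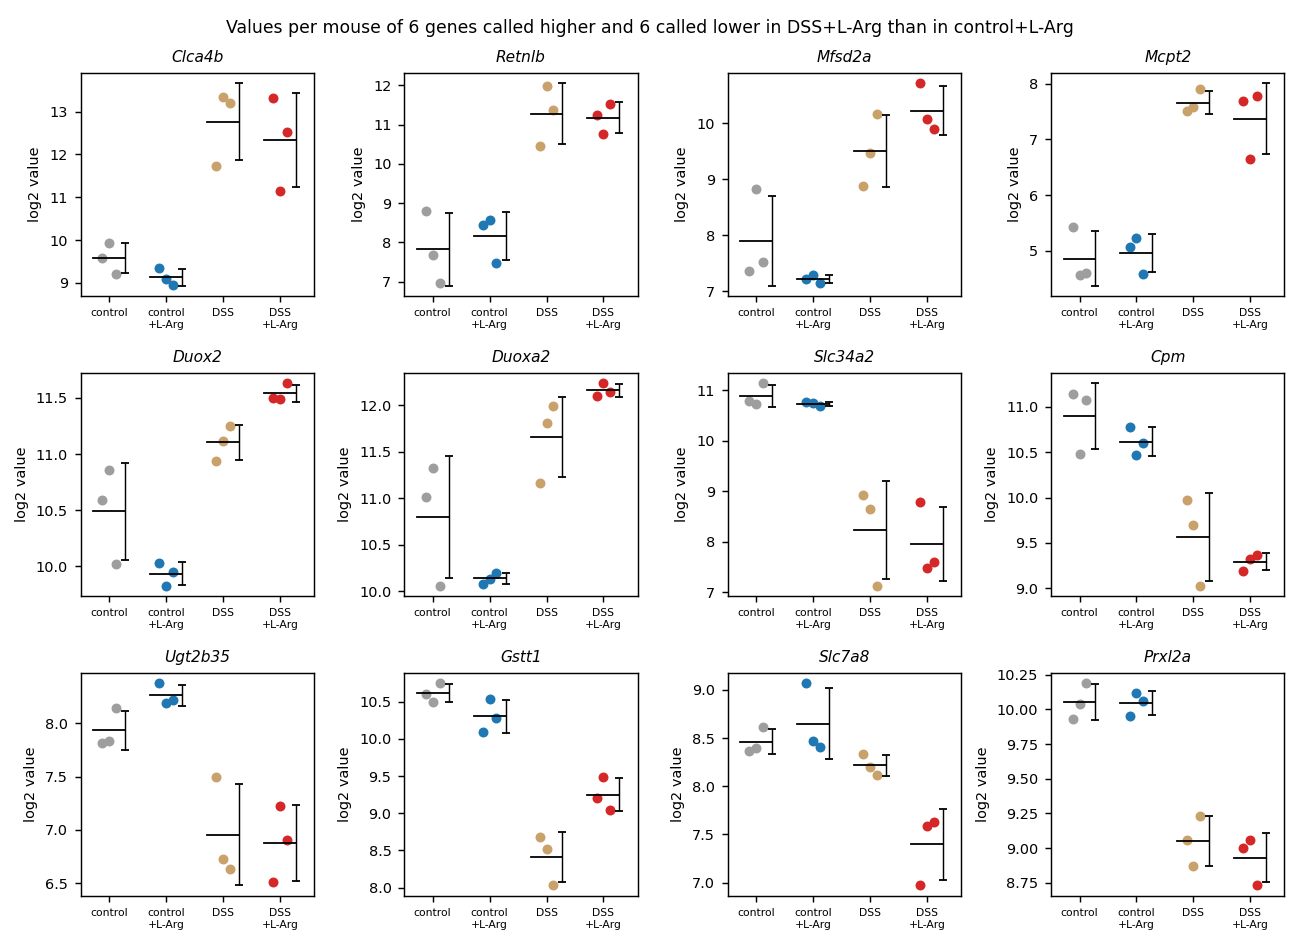
Log2 values (y axes) of 6 genes that rose and 6 that fell between control+L-Arg and DSS+L-Arg, for each mouse of the 4 groups (x axes). Points are mice, lines are means and bars are SDs (n = 3), and each panel has its own y range. Duox2 lies at 9.83 to 10.03 in control+L-Arg mice and at 11.49 to 11.63 in DSS+L-Arg mice, and Slc34a2 is near 11 in both groups without DSS and below 9 in both groups with it.

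Mucosal mast cells carry the chymases Mcpt1 and Mcpt2, while connective tissue mast cells carry Cma1 and tryptases. Mcpt2 read 5.07, 5.22 and 4.58 in control+L-Arg mice and 7.70, 6.64 and 7.78 in DSS+L-Arg mice, a 5.35-fold rise (adjusted p = 0.0257 by limma). Mcpt1 rose 3.99-fold (adjusted p = 0.0417 by limma), from 4.97, 5.39 and 4.62 to 7.00, 6.45 and 7.52. Without L-Arg their log2 fold changes between DSS and control were 2.81 ± 0.31 and 2.31 ± 0.34, and the DSS effects differed by -0.39 ± 0.44 and -0.31 ± 0.48. The other 15 mast cell genes measured were not called, and 0.201% of all genes were called higher. The tryptases Tpsab1 and Tpsb2 differed by 0.03 ± 0.15 and 0.14 ± 0.12, Cma1 by 0.09 ± 0.09, and Kit, the stem cell factor receptor, by -1.27 ± 0.38 (adjusted p = 0.16 by limma). The 17 genes had a median of 0.13. The 2 chymases are close paralogs, and whether their probes share signal was not tested.

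Cholesterol synthesis was the list with the most called genes, all of them higher. Cells make cholesterol from acetyl-CoA through mevalonate, and the transcription factor SREBP-2 (Srebf2) turns the enzymes on when sterols are low, while INSIG proteins hold it back. Of the 21 measured genes, 6 rose, where 0.201% of all genes did, none fell, and the median log2 fold change was 0.70. On the higher side 17 (81.0%) did not overlap, against 12.9% of all genes. Hmgcs1, the synthase that forms HMG-CoA, read 10.39, 9.82 and 10.10 in control+L-Arg mice and from 10.89 to 11.21 in the 3 DSS+L-Arg mice (log2 fold change 0.93 ± 0.15, adjusted p = 0.0379 by limma). Pmvk and Mvd, a kinase and the decarboxylase of the mevalonate path, rose by 0.70 ± 0.09 and 0.98 ± 0.16. Sqle, the squalene epoxidase, read 9.68, 9.31 and 9.43 against 10.34, 10.31 and 10.31 (0.85 ± 0.13, adjusted p = 0.0379 by limma). Msmo1, a sterol methyl oxidase of the later path, rose by 0.95 ± 0.16, and Insig1, itself a target of SREBP-2, rose 2.26-fold. Sqle and Pmvk are named here to complete the 6. The number called ran from 0 to 13 over the alternative settings, 0 among them with the smooth muscle covariate, and the median from 0.55 to 0.76.

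The control+L-Arg mice had the lowest list medians of the 4 groups. Relative to their mean, the median over the 21 genes was 0.35, 0.33 and 0.30 in the plain-water control mice, 0.25, 0.14 and 0.42 in the DSS mice, and 0.75, 0.41 and 0.64 in the DSS+L-Arg mice. Sqle read 10.12, 10.09 and 9.95 in the control mice, between the 2 groups on L-Arg. Between DSS and control the median log2 fold change of the 21 genes was -0.03. There 0 were called higher and 2 lower, where 1.80% and 2.23% of all genes were. For Sqle the DSS effects with and without L-Arg differed by 1.02 ± 0.18, the lowest adjusted p for that difference among the 61 called genes (0.0679 by limma), and for Pmvk by 0.67 ± 0.13 (adjusted p = 0.10 by limma).

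Promoter sequence is shown for the 5 of the 6 called genes that had an entry in the table, because they rose together. The letters are the 250 bases before the RefSeq start (GRCm38.p6, 5′ to 3′ on the strand of the gene), and capitals mark CCAAT, the box bound by NF-Y, or ATTGG, its reverse complement. The windows are chr13:119690101-119690350 (+ strand) for Hmgcs1, chr3:89454291-89454540 (+ strand) for Pmvk, chr8:122443423-122443672 (- strand) for Mvd, chr8:64733579-64733828 (- strand) for Msmo1 and chr5:28071162-28071411 (+ strand) for Insig1.
Hmgcs1: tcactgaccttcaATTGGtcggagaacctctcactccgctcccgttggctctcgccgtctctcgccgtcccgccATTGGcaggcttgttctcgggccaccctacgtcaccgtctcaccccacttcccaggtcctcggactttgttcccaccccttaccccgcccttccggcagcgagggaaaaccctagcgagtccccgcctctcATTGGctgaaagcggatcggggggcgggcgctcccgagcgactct
Pmvk: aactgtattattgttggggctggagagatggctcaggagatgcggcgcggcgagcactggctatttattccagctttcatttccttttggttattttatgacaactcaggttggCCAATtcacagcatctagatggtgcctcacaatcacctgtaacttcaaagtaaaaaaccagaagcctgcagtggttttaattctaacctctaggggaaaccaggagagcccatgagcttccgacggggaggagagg
Mvd: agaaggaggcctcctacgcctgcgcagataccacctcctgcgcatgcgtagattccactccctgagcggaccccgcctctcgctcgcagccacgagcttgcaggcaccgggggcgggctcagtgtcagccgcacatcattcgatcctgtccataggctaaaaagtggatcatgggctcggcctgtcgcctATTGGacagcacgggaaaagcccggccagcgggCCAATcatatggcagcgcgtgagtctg
Msmo1: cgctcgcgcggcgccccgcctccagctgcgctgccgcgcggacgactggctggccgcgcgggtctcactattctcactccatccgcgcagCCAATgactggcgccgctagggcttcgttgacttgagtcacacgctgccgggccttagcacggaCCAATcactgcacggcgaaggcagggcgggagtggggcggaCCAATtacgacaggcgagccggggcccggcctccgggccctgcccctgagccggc
Insig1: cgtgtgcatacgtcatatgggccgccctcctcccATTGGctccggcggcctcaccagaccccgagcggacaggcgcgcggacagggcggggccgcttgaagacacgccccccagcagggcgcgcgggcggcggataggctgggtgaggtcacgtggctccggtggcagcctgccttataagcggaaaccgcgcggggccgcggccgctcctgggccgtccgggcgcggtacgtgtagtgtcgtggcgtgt

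Of the 21 genes, 17 had a promoter in the table, and the first listed start was taken for each. The box, on either strand, was in 16 of these 17 windows (94.1%), against 35.5% of the 15614 tested genes with an entry. Hmgcs1 and Msmo1 had 3 matches each, Mvd 2, and Pmvk and Insig1 1 each. The E-box CACGTG, which does not overlap the box, was in 3 of the 17 windows (17.6%) and in 7.03% of all, and CACCCCAC, a sterol element core, on either strand in 1 of 17 (5.88%, Hmgcs1) and in 2.57% of all. The ends of the last can share letters with either of the others. These matches describe letters in a window. No binding was measured.

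**Figure D2:**
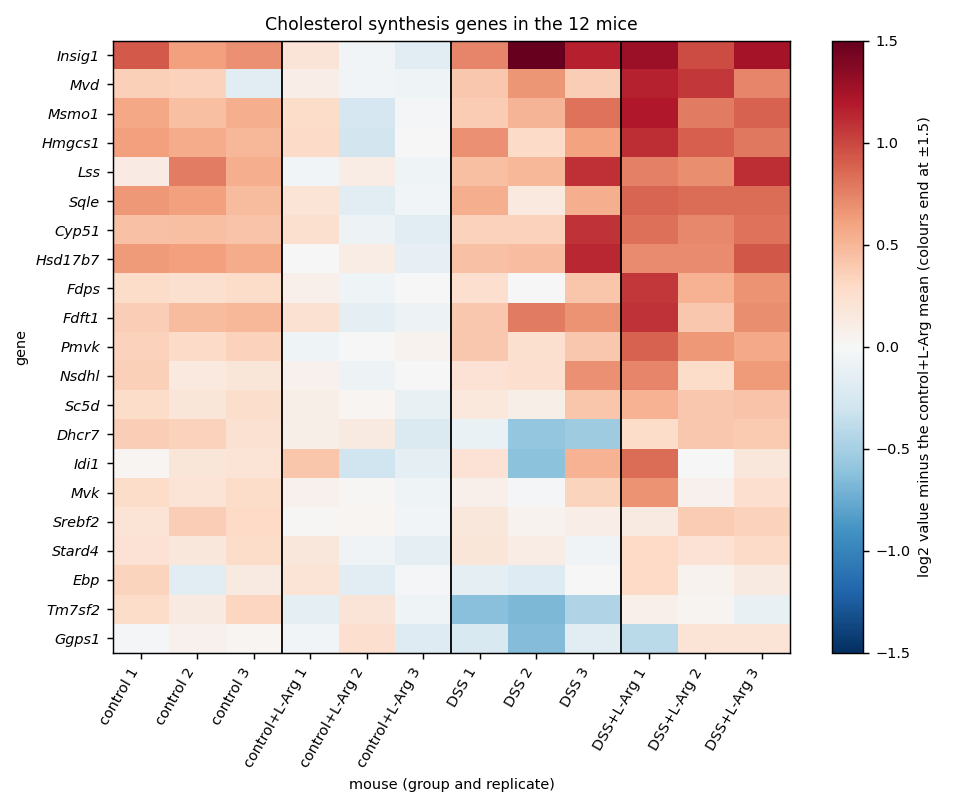
The 21 measured cholesterol synthesis genes (rows, by log2 fold change) in the 12 mice (columns), coloured by log2 value minus the control+L-Arg mean of the gene. The column medians are 0.41 to 0.75 in DSS+L-Arg, 0.14 to 0.42 in DSS and 0.30 to 0.35 in plain-water control mice, and lowest in control+L-Arg mice (-0.06 to 0.09).

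Among the other genes that rose, Mfsd2a, a lysophosphatidylcholine transporter, read 7.22, 7.29 and 7.15 in control+L-Arg mice and 10.71, 10.07 and 9.89 in DSS+L-Arg mice, an 8.01-fold rise (adjusted p = 0.0257 by limma). Capg, an actin filament capping protein, rose 4.28-fold (adjusted p = 0.0257 by limma), from 8.54, 9.01 and 8.36 to 10.99, 10.54 and 10.68. The 2 groups were well apart in both. The plain-water control mice, at 7.37, 8.83 and 7.52 for Mfsd2a and 9.46, 9.39 and 9.12 for Capg, lay above the control+L-Arg mice. Gsap, the gamma-secretase activating protein, rose by 1.74 ± 0.20, and by 1.71 ± 0.20 between DSS and control. Ripk3, the kinase of necroptosis, rose by 1.36 ± 0.21, the serine protease Prss27 by 1.48 ± 0.23 and the myosin light chain Myl7 by 1.98 ± 0.34. Between DSS and control Ripk3, Prss27 and Myl7 differed by 0.27 ± 0.21, 0.59 ± 0.23 and 0.64 ± 0.34. The 2 DSS effects on them differed by 1.09 ± 0.30, 0.89 ± 0.32 and 1.34 ± 0.48, and none passed (adjusted p = 0.23, 0.35 and 0.35 by limma). Itgb6, the epithelial integrin chain that partners the alpha V chain, rose 2.20-fold (adjusted p = 0.0379 by limma), and was the 1 called member of 30 in the regenerating epithelium list, whose median was 0.21.

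Of the interferon response genes 1 rose. Irf8, a transcription factor of myeloid and interferon responses, read 8.97, 9.24 and 8.99 in control+L-Arg mice and 9.66, 9.67 and 9.77 in DSS+L-Arg mice (0.63 ± 0.11, adjusted p = 0.0498 by limma), the 1 called of 34. The median of the list was 0.39, with 11 members (32.4%) not overlapping on the higher side, against 12.9% of all genes. Between DSS and control the median was -0.27. There 0 members were called higher and 2 lower, where 1.80% and 2.23% of all genes were. The test of the difference between the 2 DSS effects called 0 of the 34. Tap1, the peptide transporter of class I antigen presentation, chosen after its values were seen, read 7.73, 7.90 and 8.28 against 9.31, 8.70 and 8.91 (adjusted p = 0.0628 by limma). By mouse, the list median was -0.37, -0.02 and 0.38 in control+L-Arg mice and 0.69, 0.44 and 0.02 in DSS+L-Arg mice, so the groups overlapped.

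Slc34a2, the sodium-phosphate cotransporter of the apical membrane, was among the genes that fell. It read 10.76, 10.75 and 10.69 in control+L-Arg mice and 8.79, 7.47 and 7.60 in DSS+L-Arg mice, a 6.87-fold fall (adjusted p = 0.0379 by limma). All 3 DSS+L-Arg mice were far below the tight control+L-Arg values, and DSS mice without L-Arg read 8.93, 8.65 and 7.13. Of 55 surface colonocyte genes, Clca4b was higher, Slc34a2 was lower and the other 53 were not called, with a median of 0.02. Cpm, a membrane carboxypeptidase, went from 10.78, 10.47 and 10.60 to 9.19, 9.32 and 9.37 (log2 fold change -1.32 ± 0.23), and Dpp4, a dipeptidyl peptidase of the brush border, fell 1.82-fold. Prxl2a, a peroxiredoxin-like protein, had 1 of the 3 lowest adjusted p values (0.0123 by limma), at 9.95, 10.12 and 10.06 against 8.73 to 9.06. A variable segment gene of the immunoglobulin kappa light chain had the largest fall of the called genes, 11.9-fold, but read 9.78, 7.83 and 10.52 in the control+L-Arg mice against 6.30, 8.30 and 6.59 in the plain-water control mice. B3galt2, a galactosyltransferase, read 8.38, 7.76 and 8.24 against 6.10, 6.96 and 6.65, and Capsl and the zinc finger gene Zfp971 fell by 1.43 and 0.97.

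Conjugating enzymes, by which the colonic epithelium clears xenobiotics and steroids, had 3 called genes, all lower, where 0.105% of all genes were called lower. Of 64 measured detoxification genes 21 (32.8%) did not overlap on the lower side, against 8.13% of all genes, and the median of the 64 was -0.19. Ugt2b35, a glucuronosyltransferase, read 8.38, 8.19 and 8.22 in control+L-Arg mice and 6.51, 7.22 and 6.90 in DSS+L-Arg mice (log2 fold change -1.39 ± 0.23, adjusted p = 0.0381 by limma). Sult1c2, a sulfotransferase, fell by 1.12 ± 0.19. Gstt1, a glutathione transferase, read 10.09, 10.54 and 10.28 against 9.21, 9.49 and 9.05 (-1.05 ± 0.18, adjusted p = 0.0417 by limma). Without L-Arg the log2 fold change of Gstt1 was -2.21 ± 0.18, and the difference between the DSS effects was 1.15 ± 0.25 (adjusted p = 0.15 by limma).

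Lists of rare epithelial cells had negative medians and no called gene. Tuft cells are chemosensory epithelial cells that use taste-type signaling. Of 20 measured tuft cell genes none was called and the median was -0.31. On the lower side 9 (45.0%) did not overlap, against 8.13% of all genes. Rgs13, a regulator of G protein signaling, read 8.67, 9.41 and 8.22 in control+L-Arg mice and 5.19, 7.20 and 6.34 in DSS+L-Arg mice (log2 fold change -2.52 ± 0.58, adjusted p = 0.0965 by limma), and Gnat3, the taste G protein gustducin, differed by -1.45 ± 0.36. In DSS against control 8 tuft cell genes were called lower, where 2.23% of all genes were, and the median was -0.39. In that comparison 1 member, Alox5ap, was called higher (log2 fold change 2.22, adjusted p = 0.0242 by limma). The test of the difference between the 2 DSS effects called 0 tuft cell genes. Of 27 enteroendocrine genes none was called and 8 (29.6%) did not overlap on the lower side, with a median of -0.41, and the somatostatin gene Sst differed by -1.44 ± 0.46 (adjusted p = 0.18 by limma). The crypt stem cell list had 9 of 24 members (37.5%) not overlapping on the lower side and a median of -0.17, with Lgr5, a crypt base stem cell receptor, at -0.73 ± 0.32.

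**Figure D3:**
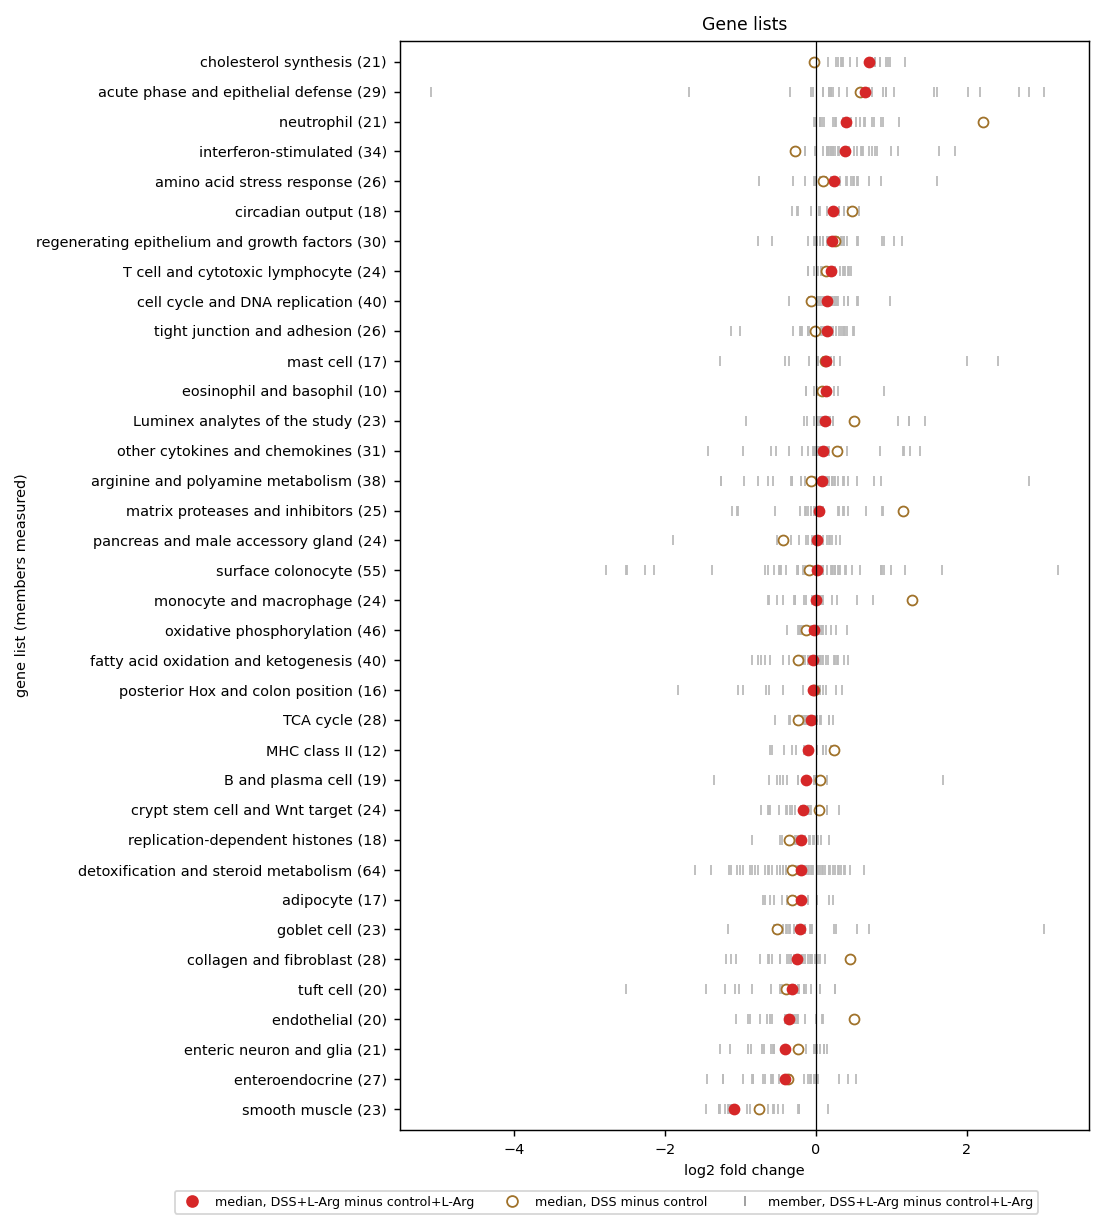
Log2 fold changes (x axis) in 36 gene lists (y axis, with the number of measured members). Grey ticks are members and filled points are list medians for DSS+L-Arg minus control+L-Arg, and open points are list medians for DSS minus control. Cholesterol synthesis has the highest filled point (0.70) and smooth muscle the lowest (-1.08), and the open point lies farthest right of the filled one for neutrophil genes.

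Genes of the muscle coat were lower on average, with wide spread between mice. Of 23 smooth muscle genes 22 had a lower mean in the DSS+L-Arg mice, none was called, none separated the groups, and the median was -1.08. Myl9, a myosin light chain, read 12.08, 10.95 and 12.80 against 10.03, 11.23 and 10.23 (log2 fold change -1.45 ± 0.47, adjusted p = 0.19 by limma). Endothelial genes (20) and enteric neuron and glia genes (21) had medians of -0.35 and -0.41 and no call either. On the lower side 5 (25.0%) and 8 (38.1%) of them did not overlap, against 8.13% of all genes. Between DSS and control the medians of these lists were 0.50 and -0.24. In the fit with the mean of the smooth muscle genes as a covariate no gene was called. The log2 difference between the groups in that fit was 1.42 for Duox2, 2.23 for Retnlb, 1.91 for Mcpt2, 1.06 for Insig1 and -2.67 for Slc34a2. The part of the muscle signal in these results was not tested further.

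Neutrophil and macrophage markers, which rise in DSS colitis as these cells enter the mucosa, gave no call among mice on L-Arg. Of 21 neutrophil genes none was called between DSS+L-Arg and control+L-Arg mice, and the median was 0.40. On the higher side 8 (38.1%) did not overlap, against 12.9% of all genes. Between DSS and control the median of the 21 genes was 2.21 and 12 were called higher, where 1.80% of all genes were called higher and 2.23% lower. The test of the difference between the 2 DSS effects called 0 of the 21. S100a8, a calgranulin abundant in neutrophils, read 6.55, 6.35 and 5.73 in control+L-Arg mice, 7.82, 6.52 and 6.98 in DSS+L-Arg mice and 10.01, 9.05 and 11.57 in DSS mice. Retnlg, another neutrophil gene, was 2.15-fold higher with DSS+L-Arg (adjusted p = 0.45 by limma). Of 24 monocyte and macrophage genes none was called and the median was 0.00, against 1.28 and 14 called higher between DSS and control. The test of the difference called 0 of these 24 too. Of 23 measured genes for the proteins in the cytokine panel of the study none was called, with Il1b at 1.45 ± 0.89 and Ccl3 at 1.24 ± 1.06. Ccl8, a monocyte chemoattractant, was the 1 called of 31 other cytokine genes. It read 5.14, 5.28 and 5.43 in control+L-Arg mice and 6.47, 6.33 and 6.50 in DSS+L-Arg mice (log2 fold change 1.15 ± 0.19, adjusted p = 0.0379 by limma), and 7.61, 7.63 and 6.81 in DSS mice.

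**Figure D4:**
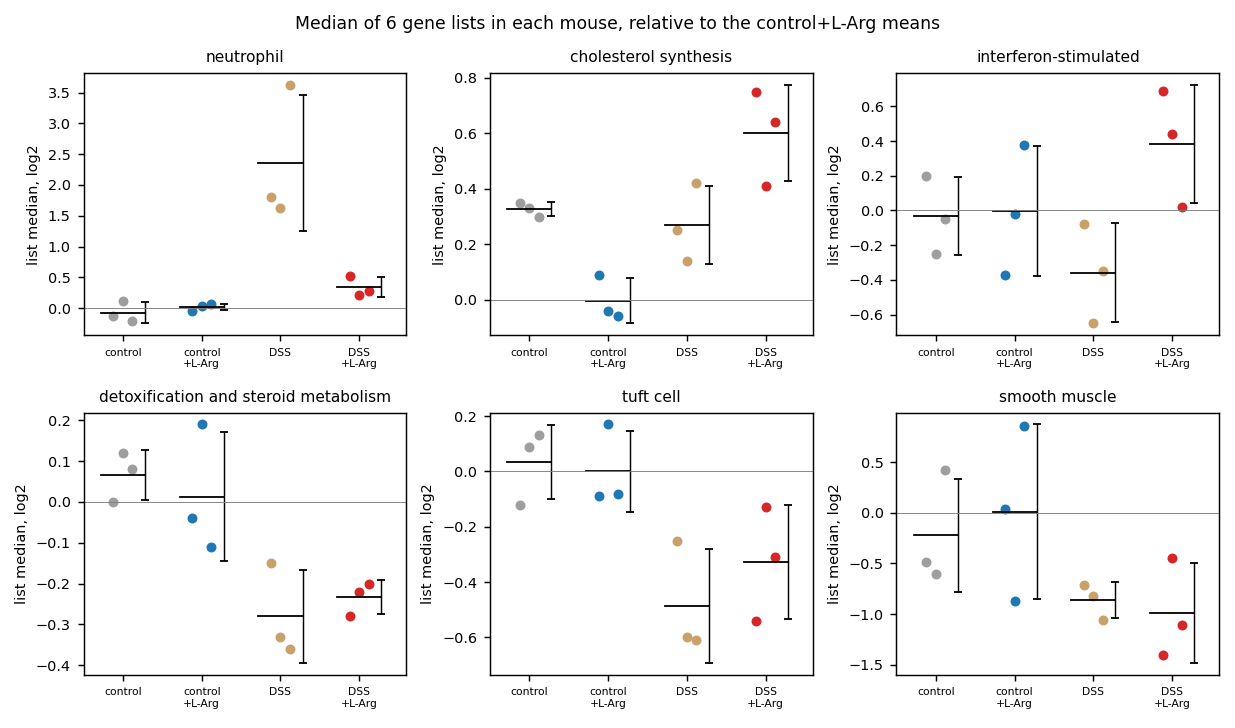
Median of 6 gene lists in each mouse (y axes, log2, relative to the control+L-Arg mean of each gene) by group (x axes). Points are mice, lines are means and bars are SDs (n = 3). Neutrophil genes lie at 0.22 to 0.52 in DSS+L-Arg mice and at 1.62 to 3.62 in DSS mice, while the smooth muscle medians of the 2 L-Arg groups overlap.

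Of genes for the handling of L-Arg and polyamines, 38 were measured, 1 rose and 1 fell, and the median was 0.08. Smox, the spermine oxidase, read 9.70, 10.00 and 9.74 in control+L-Arg mice and 10.48, 10.75 and 10.53 in DSS+L-Arg mice (log2 fold change 0.77 ± 0.13, adjusted p = 0.0381 by limma). Between DSS and control Smox differed by 0.01 ± 0.13, and the 2 DSS effects differed by 0.76 ± 0.18 (adjusted p = 0.18 by limma). In the plain-water control mice Smox read 10.07, 10.36 and 10.04. Slc7a8, the light chain of a neutral amino acid exchanger, read 9.07, 8.47 and 8.41 against 6.97, 7.59 and 7.63 (-1.25 ± 0.20, adjusted p = 0.0379 by limma). It differed by -0.24 ± 0.20 between DSS and control, and the 2 DSS effects differed by -1.01 ± 0.28 (adjusted p = 0.24 by limma). The cationic amino acid transporters Slc7a1 and Slc7a2 differed by 0.15 ± 0.14 and -0.14 ± 0.18. Arg1 and Arg2, the arginases, differed by 0.29 ± 0.45 and 0.06 ± 0.43, the ornithine decarboxylase Odc1 by -0.32 ± 0.32 and the ornithine aminotransferase Oat by -0.63 ± 0.21, and none of the 6 was called. In the amino acid stress list of 26 genes none was called, and the cystine transporter Slc7a11 differed by 1.61 ± 0.55 (adjusted p = 0.21 by limma).

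Lists for energy metabolism, the cell cycle, lymphocytes and fibroblasts had no called gene. Oxidative phosphorylation (46 genes), the TCA cycle (28) and fatty acid oxidation (40) had medians of -0.03, -0.07 and -0.04. The 40 cell cycle genes had a median of 0.15, and Rrm2, a ribonucleotide reductase subunit, differed by 0.98 ± 0.34. The 24 T cell genes had a median of 0.20, and the 19 B and plasma cell genes -0.13. Collagen and fibroblast genes (28) had a median of -0.25. Between DSS and control it was 0.45, and 7 of the 28 were called higher, where 1.80% of all genes were. The test of the difference between the 2 DSS effects called 0 of the 28.

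The DSS effects with and without L-Arg come from separate arrays, and their difference was tested in the same model. Of the 61 genes called with L-Arg, 23 were called the same way between DSS and control (37.7% of the 61 and 2.86% of the 803 called there), 12 of them higher and 11 lower, and 0 were called the opposite way. Of the 40 that rose, 38 had a higher mean in DSS than in control, and of the 21 that fell, 19 had a lower one. None of the 61 passed the test of the difference at an adjusted p under 0.05.

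For 15 genes (0.0752%) the 2 DSS effects differed, with 13 effects lower and 2 higher in mice on L-Arg. Of the 15, 13 were called higher and 2 lower between DSS and control, and 0 were called between DSS+L-Arg and control+L-Arg. Leaving out 1 array moved the count of 15 by over 1.5 times in every case: to 7, 8 and 5 without control 1, 2 and 3, to 7, 135 and 7 without control+L-Arg 1, 2 and 3, to 53, 23 and 82 without DSS 1, 2 and 3, and to 9, 6 and 4 without DSS+L-Arg 1, 2 and 3. In each of these fits all 15 kept their direction and an unadjusted p under 0.01. Of the 15, 4 were in the list of matrix proteases and inhibitors. Mmp13, an interstitial collagenase, read 10.86, 11.03 and 10.52 in DSS mice but 7.67, 6.78 and 6.67 in DSS+L-Arg mice, against 7.19, 5.71 and 6.19 in control+L-Arg mice. Its log2 fold change was 5.09 ± 0.37 without L-Arg and 0.67 ± 0.37 with it, and the difference of -4.42 ± 0.52 had an adjusted p of 0.0119 by limma. The stromelysins Mmp3 and Mmp10 differed by 0.30 ± 0.26 and 0.10 ± 0.22 in mice on L-Arg and by 3.41 ± 0.26 and 3.16 ± 0.22 in mice without it. Their control+L-Arg and DSS+L-Arg values overlapped. Plau, the urokinase that activates plasminogen, read 6.11, 5.92 and 6.50 in control+L-Arg mice, 6.34, 6.16 and 6.32 in DSS+L-Arg mice and 8.69, 8.72 and 8.37 in DSS mice. Its difference, -2.70 ± 0.20, had an adjusted p of 0.0003 by limma. Serpina3n, an acute phase serpin, differed by 0.70 ± 0.25 with L-Arg and 4.45 ± 0.25 without, the copper carrier ceruloplasmin (Cp) by -0.27 ± 0.25 and 2.16 ± 0.25, and the cytokine Il6 by 0.19 ± 0.14 and 1.70 ± 0.14.

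**Figure D5:**
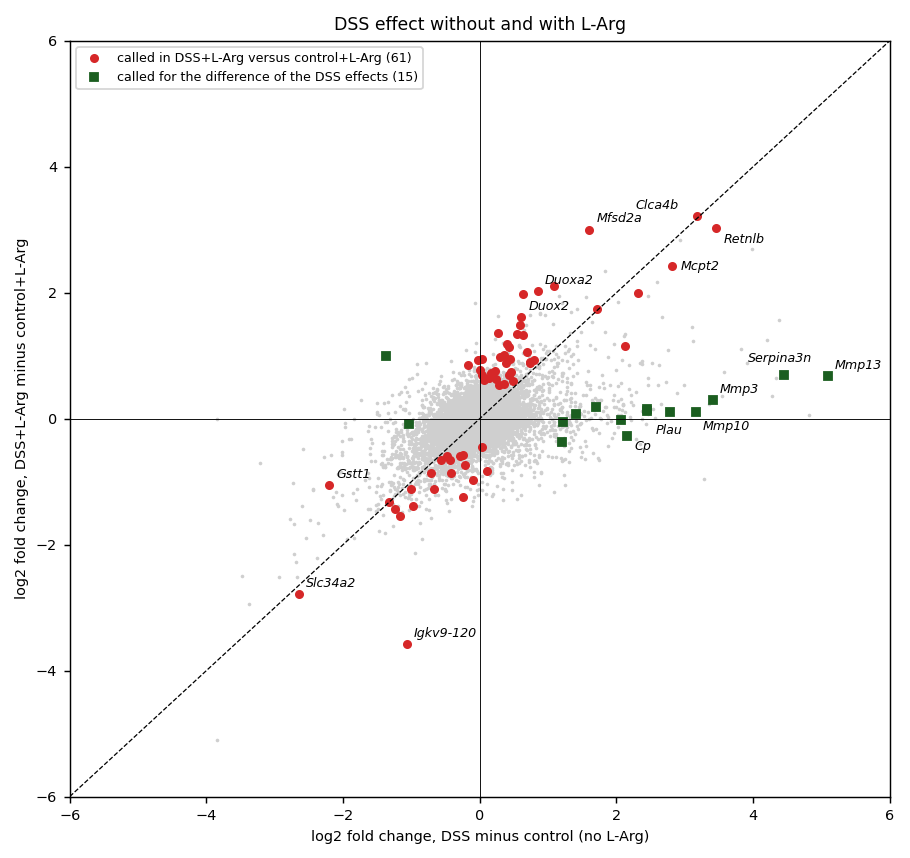
Log2 fold change of each gene between DSS and control (x axis) and between DSS+L-Arg and control+L-Arg (y axis). Grey dots are all genes tested, red circles the 61 called on the y axis, green squares the 15 called for the difference of the 2 effects, and the dashed line marks equal effects. Clca4b, Retnlb, Mcpt2 and Slc34a2 lie by the dashed line, and Mmp13, Mmp3 and Mmp10 lie far along the x axis and below 1 on the y axis.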

How the data were processed

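Colon RNA of 12 mice (4 groups of 3) was hybridized to Affymetrix mouse Gene ST arrays, 1 array per mouse. Affymetrix Expression Console 1.1, RMA and genome build mm9 are named in the submitters' processing notes. The values deposited by the authors are log2 signals per probe set, background-corrected, quantile-normalized and summarized by RMA, and a shift common to most genes is lost in that step. Precision is limited by the 3 mice per group. Array medians lay between 6.49 and 6.64. Any 2 arrays of a group differed by over 0.01 in at least 95.1% of genes.

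Of 35556 probe sets, 21789 carried 1 gene in the platform table and were used, 1621 had more than 1 gene and 12146 had no entry there. The brightest probe set was kept for the 999 genes with several. In these, the probe sets of Iftap, which was called, had opposite signs (-0.57 and 0.28). Names were updated through the RefSeq gene table (19856 of 19938 genes).

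limma 3.58.1 in R 4.3.3 fitted 1 mean per group to all 12 arrays (8 residual and 3.37 prior degrees of freedom), and p-values were adjusted by Benjamini-Hochberg over all genes. The labels do not say that mice of a group were kept apart, so p-values measure the spread between these samples. SAM, which the study names, was not run. Groups not overlapping means that all 3 values of 1 group exceed all 3 of the other. The 36 gene lists (939 of 1037 genes measured) are described by counts and medians, with no test. Members, lists and the rule for named genes were chosen with earlier results of these data known. That rule takes the 12 largest increases and 12 largest decreases among called genes that do not overlap, up to 4 called members of each list or its 2 largest changes where none was called, genes of the study, and the 6 largest called differences of effects. Predicted genes may stay unnamed. The pipeline was tested on simulated data. Tables were made with Python 3.11.15, pandas 2.3.3 and matplotlib 3.10.9.

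As alternatives, the 2 groups were fitted alone, a replicate block was added, arrays were centred on their medians or quantile-normalized once more, genes not above the 30th percentile in at least 3 arrays were dropped, probe sets were averaged, and the fit was repeated with array weights, a trended and robust prior, an unequal-variance test, covariates for posterior Hox genes and smooth muscle, and without each array in turn.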

Additional observations from a re-analysis of the deposited data

Results flagged for a closer look

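The effect of DSS differed between mice with and without L-Arg in 15 genes by a test of the difference in the limma model. The difference, on the log2 scale and with L-Arg minus without, was -4.42 for Mmp13, -3.75 for Serpina3n, -3.10 for Mmp3, -3.07 for Mmp10, -2.70 for Plau, -2.43 for Cp and -1.51 for Il6. In each of these 7 the 3 DSS mice without L-Arg were above all other mice, and the log2 fold change with L-Arg lay between -0.27 and 0.70. Groups of 3 mice are too small for a test of single mice that stand apart, and none was made.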

How the results depend on the processing

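All 61 called genes kept their direction in every alternative that tested them, and of the named called genes none turned, although many calls were lost. The counts called higher and lower, 40 and 21, were 85 and 32 with the 2 groups fitted alone, 237 and 154 with array weights, 51 and 34 with the posterior Hox covariate, 30 and 14 with a trended and robust prior, and 0 and 0 with the unequal-variance test (1816 genes at an unadjusted p under 0.05) and with the smooth muscle covariate (1259). Leaving out 1 array gave 0 to 135 higher and 0 to 101 lower. With the thresholds of the study, 59 higher and 86 lower, the counts were 131 lower with array weights, 36 and 12 with the unequal-variance test and 33 and 20 with the smooth muscle covariate, and leaving out 1 array gave 35 to 199 lower. The 15 genes called for the difference of effects became 24 with centred arrays, 23 with the mean of probe sets, 93 with array weights, 113 with the smooth muscle covariate and 4 to 135 without 1 array. No unequal-variance test was run for that difference. The cause of these changes was not tested.

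A replicate block for the mouse number gave 19 higher and 10 lower over all 12 arrays, and 98 and 59 in the 2 groups alone. Same-numbered control+L-Arg and DSS+L-Arg mice deviated from their group means with correlations of 0.351, 0.206 and -0.281, and control+L-Arg 2 and 3 did not correlate best with their own number, so the numbers were not taken as pairs.

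Among the named genes, directions turned only for ones that were not called. Arg2 (0.06) was -0.27 with the Hox and -0.22 with the smooth muscle covariate, and -0.20 to 0.44 without 1 array. With the smooth muscle covariate C1qc was 0.01, Cp 0.03, H2-Aa 0.31 and S100a8 -0.01. Without 1 array Mmp10 was -0.02 to 0.31 and Plau -0.03 to 0.26. The remaining limits are the 3 mice per group, the bulk tissue and the RMA normalization.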

Other observations

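Lists that belong to other tissues or to the time and place of sampling had no called member. The 24 genes of pancreas and male accessory gland had a median log2 fold change of 0.02 between DSS+L-Arg and control+L-Arg mice, but the colipase gene Clps read 11.05, 10.94 and 11.47 in control+L-Arg mice and 8.93, 9.94 and 8.91 in DSS+L-Arg mice (-1.89 ± 0.50, adjusted p = 0.13 by limma). The 16 posterior Hox and colon position genes had a median of -0.04, with 9 means lower and 7 higher. The largest differences were those of Hoxb13 (-1.82 ± 1.28, adjusted p = 0.52 by limma) and Hoxd10 (-1.03 ± 0.52, adjusted p = 0.37 by limma). The 18 circadian output genes had a median of 0.23, with Ciart at 0.57 ± 0.27, and the 17 adipocyte genes one of -0.20, with Car3 at -0.70 ± 0.75.

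Of 18 measured replication-dependent histone genes, 5 (27.8%) did not overlap on the lower side, against 8.13% of all genes, and the median of the 18 was -0.19. H3c4 read 7.48, 8.08 and 7.56 in control+L-Arg mice and 6.89, 6.73 and 6.98 in DSS+L-Arg mice (adjusted p = 0.0959 by limma). Tight junction and adhesion genes (26) had 9 members (34.6%) not overlapping on the higher side, against 12.9% of all genes, and a median of 0.15. Medians were 0.04 for matrix proteases and inhibitors (25), 0.13 for eosinophil and basophil genes (10) and -0.11 for MHC class II genes (12). None of these lists had a gene called between DSS+L-Arg and control+L-Arg mice.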
